A study of Corbicula fluminea with 24 samples.

Results

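Of 24 caged clams, 7 had little transcript of GUN, a contig named for an endoglucanase, in the digestive gland, and they are set here against the 17 others. The members were chosen by a measured value: a clam counts as low where GUN held under 100 CPM, the unit of counts scaled by the library's total, and as high otherwise. GUN is the value that chose them, so it is given as a description and left out of every result. The low clams were urban runoff individuals 53, 56 and 62, WWTP individual 41 and reference individuals 20, 21 and 30. Their GUN level ran over 3.19, 9.33 and 99.3 CPM (lowest, median and highest), and that of the high clams over 135.7, 609.6 and 812.8 CPM. Reference individual 30, at 99.3 CPM, lay just inside the threshold and WWTP individual 33, at 135.7 CPM, just outside it, while the next high clam, urban runoff individual 55, stood at 348.9 CPM.

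All clams were Asian clams (Corbicula fluminea), a freshwater bivalve, caged in the field over winter. Of the 8 clams downstream of an urban runoff outlet 3 were low and 5 high, of the 8 downstream of a wastewater treatment plant (WWTP) 1 was low and 7 high, and of the 8 at a reference site 3 were low and 5 high. The sources used here give no strain, sex or age. Each library held the digestive gland RNA of 1 clam, and each site had 1 caging, so p-values measure the spread between animals. No difference in the share of low clams was detectable between sites (two-sided Fisher-Freeman-Halton exact test, p = 0.619). None was detectable between sequencing lanes either, with 3 low and 9 high clams in lane 3 and 4 low and 8 high clams in lane 4 (Fisher's exact p = 1). Because the sets were made from a value of the same libraries, the comparison describes what goes with a low GUN level and tests no treatment.

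The digestive gland of a bivalve takes in particles filtered from the water and breaks them down. In its tubules, digestive cells take up food and digest it inside the cell, while other secretory cells make enzymes that are released into the gut. Endoglucanases cut cellulose, amylases starch, mannanases the mannans of plant cell walls, and lipases fats. Lysozymes cut the cell walls of bacteria and serve in filter feeders both in digestion of bacteria and in defence. The gland lies against the gonad and is wrapped in connective tissue and muscle fibres, so that a piece of it can hold several cell types. Gene names below are those of the deposited table, which pairs no description or source species with them, and roles are those of the gene of that name in other animals. Where several contigs share a name, as Amy.1.2 and Amy.2.2 do, reads could have been divided among them, so their separate levels are uncertain.

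Total counts were 58.4 M ± 8.20 (SD, n = 7) in low clams and 67.4 M ± 14.6 (SD, n = 17) in high clams, a difference within the spread between clams (-8.93 M, two-sided exact permutation p = 0.14). Scaling factors (TMM, which adjusts totals for transcript makeup) did not overlap: they ran from 1.13 to 1.28 in low and from 0.755 to 1.09 in high clams. The 100 most abundant contigs held 24.6 to 31.8% of counts in low clams and 24.0 to 33.7% in high clams. The scaling bears on small differences. With library totals alone the median log2 fold change over all contigs was 0.35, against 0.02 with TMM, so differences of that size are relative to the scaling.

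GUN did not stand alone. The carbohydrate and fat enzymes Amy.1.2, MANA and LIPA, which mark the contrast and are given without a test, were low in the same 7 clams. Amy.1.2, an amylase, ran over 3.33, 6.72 and 70.7 CPM in low clams (lowest, median and highest; CPM here and below is relative to the TMM-scaled library size), against 139.0, 577.6 and 831.7 CPM in high clams. LIPA, a lipase, ran over 0.839, 1.47 and 15.9 CPM in low clams, against 25.6, 145.3 and 181.6 CPM in high clams. MANA, a mannanase, ran over 1.64, 2.75 and 21.7 CPM in low clams, against 39.2, 163.2 and 241.0 CPM in high clams. No low clam reached the lowest high clam in any of the 3. Their log2 fold changes, low over high, were -4.98, -5.14 and -4.83. Within sites that of Amy.1.2 was -5.23 at the urban runoff site, -6.40 at the WWTP site and -4.32 at the reference site. In gland tissue as a whole, fewer cells of a type and less RNA per cell cannot be told apart.

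**Figure D1:**
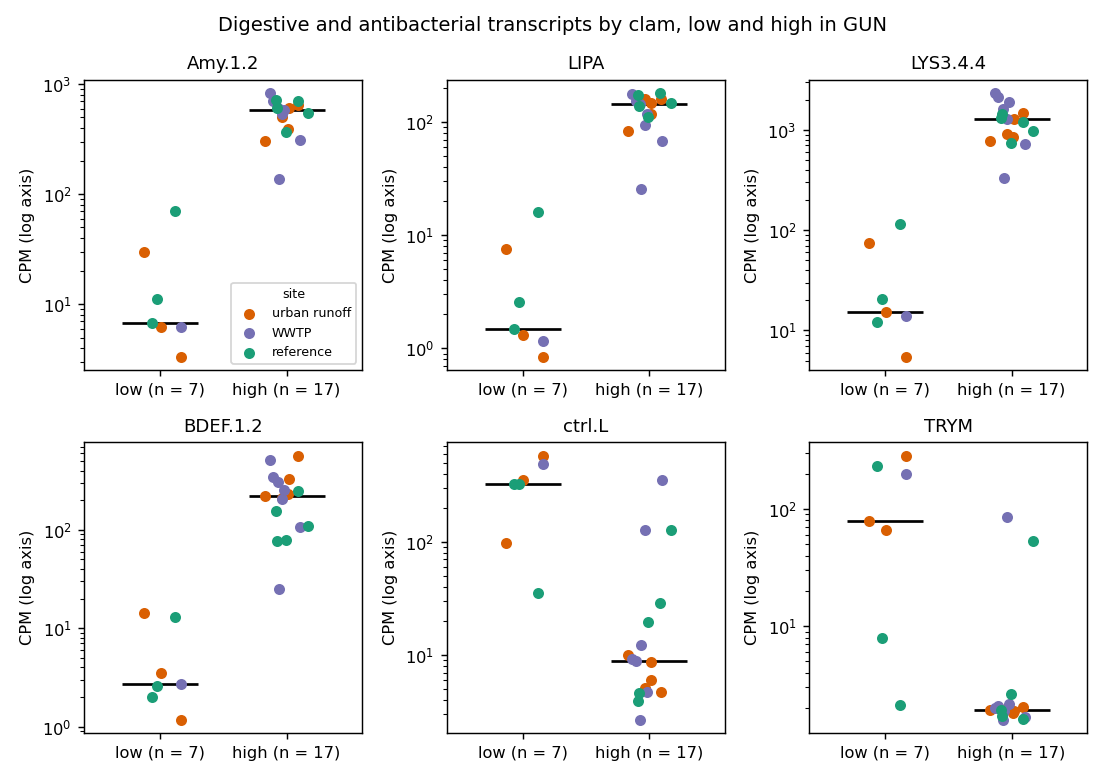
Level of 6 transcripts in each clam, as CPM of the TMM-scaled library size on a log axis, with low clams (n = 7) left of high clams (n = 17); colours are sites and black bars are medians. Amy.1.2, LIPA, LYS3.4.4 and BDEF.1.2 show no overlap between the sets, while ctrl.L and TRYM are higher in most low clams and overlap with a few high clams.

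The difference reached far beyond digestion. Over the 57724 contigs tested apart from GUN, 24940 (43.2%) passed an adjusted p of 0.05 (edgeR quasi-likelihood test with site as a term and Benjamini-Hochberg adjustment), of which 11079 (19.2%) were higher and 13861 (24.0%) lower in low clams. In 3302 contigs (5.72%) every low clam lay below every high clam, and in 443 contigs (0.767%) every low clam lay above. The split by direction rests on the scaling: with library totals alone 28344 contigs were higher and 7420 lower, and with upper-quartile scaling 19162 were higher and 9999 lower. Counts of genes below are to be read against the shares called. Large differences were mostly losses: beyond 2-fold, 3328 contigs were higher and 5356 lower, and beyond 8-fold, 283 were higher and 2040 lower. A test of whether the difference varied between sites called 0 contigs at an adjusted p of 0.05 (edgeR, and no other tool was run for it). At an unadjusted p under 0.05 it passed 997 of the 57724 contigs, a smaller share than the 0.05 that this limit passes by chance. The WWTP site had 1 low clam, so the difference at that site rests on 1 animal.

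The large losses were of nearly one size. Of the 23371 contigs with a mean of at least 5 CPM, 1295 had a log2 fold change from -5.5 to -4.5, against 325 from -4.5 to -3.5 and 308 from -3.5 to -2.5. The mean is over all 24 libraries, 17 of them of high clams, so this limit on the mean passes a contig lost in low clams more readily than one gained there, and losses and gains are not compared under it. The band was chosen after its values were seen and gets no test. The band fixes the fold between the sets, so a like share across its 1295 contigs follows largely from how they were chosen. As a description only, the share of its high-clam median that each contig kept is given for each clam. That share had a median of 0.569% in urban runoff individual 56 (quartiles 0.409 and 0.871%), 1.29% in urban runoff individual 53, 1.21% in WWTP individual 41, 1.13% in reference individual 20 and 1.82% in reference individual 21. It was larger in the clams nearer the threshold, with 5.90% in urban runoff individual 62 (quartiles 5.30 and 6.65%) and 10.9% in reference individual 30 (quartiles 10.03 and 12.3%). Among high clams WWTP individual 33 stood apart, at 23.8%, and the other 16 ran from 58.5 to 148.7%. The source of the small remaining level in the lowest clams was not tested, and folds near -5 rest on it.

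**Figure D2:**
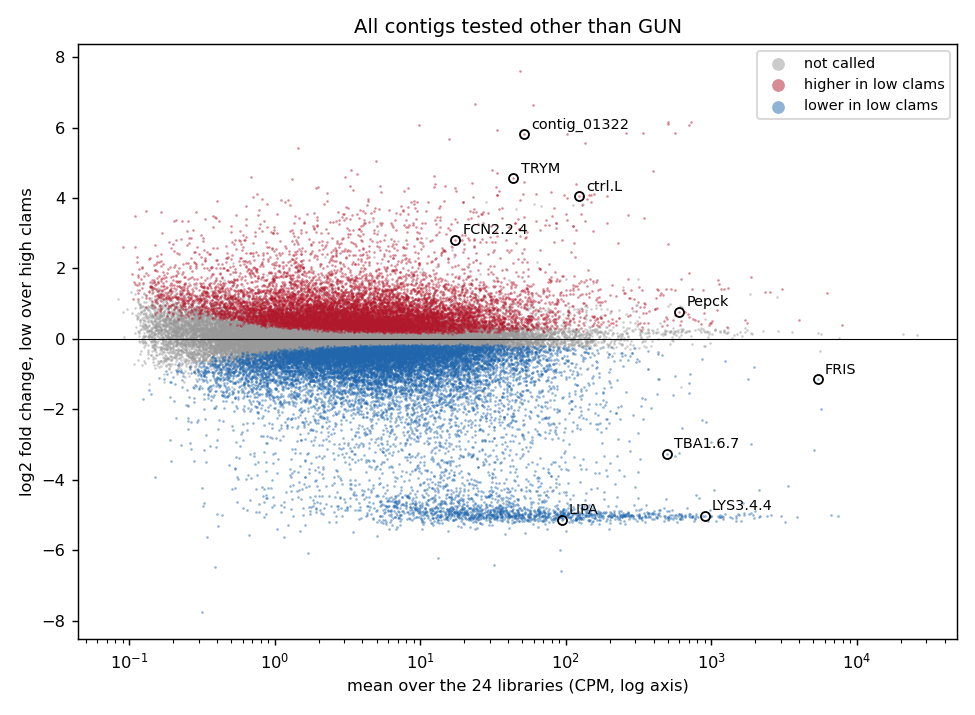
Log2 fold change, low over high clams, of every contig tested other than GUN, against its mean over the 24 libraries (CPM, log axis). Red contigs were higher and blue lower in low clams at an edgeR adjusted p under 0.05, grey ones were not called; the blue band near -5 runs across contigs of low and of high mean.

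Most contigs named for antibacterial proteins were lower in low clams. Of 17 contigs named for lysozymes, defensins, perforins of the macrophage type (MPEG1) and a bactericidal protein, 12 were lower, 2 higher and 3 not called, and in 11 every low clam lay below every high clam. Their median log2 fold change was -4.29, beside 0.02 over all contigs. LYS3.4.4, a lysozyme, ran over 5.42, 15.1 and 116.3 CPM in low clams, against 330.4, 1286 and 2340.4 CPM in high clams (log2 fold change -5.03 with SE 0.61, edgeR adjusted p = 6.26e-07). BDEF.1.2, named for the big defensins, antibacterial peptides of invertebrates, ran over 1.17, 2.69 and 14.3 CPM in low clams, against 25.2, 220.8 and 568.2 CPM in high clams (log2 fold change -5.26 with SE 0.674, edgeR adjusted p = 1.41e-06). Outside the list, HYDMA, named for hydramacin, an antibacterial peptide known from Hydra, fell by 5.47 on the log2 scale (SE 0.597, edgeR adjusted p = 2.17e-07). Not all lysozymes did so. LYS.1.5 ran over 55.8, 67.1 and 110.2 CPM in low clams and 35.3, 45.7 and 82.3 CPM in high clams and was higher (log2 fold change 0.65 with SE 0.15, edgeR adjusted p = 0.00116), while LYS1 stood at medians of 20.6 CPM in low and 22.0 CPM in high clams and was not called. Lysozymes thus split by contig. The whole list summed to 99.5 to 345.6 CPM in low clams and 566.3 to 3354 CPM in high clams.

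Other digestive enzymes did not all follow GUN. Of the 8 carbohydrases tested (of 9 in the table, GUN left out), 2 are the markers Amy.1.2 and MANA; of the other 6, BGAL was lower, 1 was higher and 4 were not called. With library totals 5 of these 6 were higher and with upper-quartile scaling 2. BGAL, a beta-galactosidase of the lysosome, fell by 2.12 on the log2 scale (SE 0.203, edgeR adjusted p = 5.11e-08), with no overlap between the sets. The other amylase contig, Amy.2.2, ran over 2.35, 3.92 and 5.97 CPM in low clams and 0.911, 2.81 and 7.61 CPM in high clams and was not called. The chitinase CHIA stood at medians of 3.48 CPM in low and 2.91 CPM in high clams and was not called either. Among 5 lipases and phospholipases, 1 is the marker LIPA; of the other 4, GPLD1, a phospholipase that frees anchored proteins, was lower, daglb was higher and 2 were not called. GPLD1 fell by 3.07 on the log2 scale (SE 0.236, edgeR adjusted p = 2.09e-08). CEL, a bile salt lipase in vertebrates, stood below 2 CPM in every clam of both sets and was not called. Of 13 cathepsin and lysosome contigs tested (of 14), 4 were lower, 2 higher and 7 not called. Their balance rests on the scaling, with 2 lower and 8 higher under library totals, and 4 lower and 6 higher under upper-quartile scaling. Without WWTP individual 41 the number higher was 1. CATL, a cathepsin that digests protein inside lysosomes, stood at medians of 10.8 CPM in low and 9.61 CPM in high clams.

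Protein-cutting enzymes went in opposite directions. Of 12 serine proteases and carboxypeptidases, 6 were higher, 3 lower and 3 not called, with a median log2 fold change of 1.04. TM11L, named for a membrane-bound serine protease, ran over 6.47, 11.7 and 75.1 CPM in low clams, against 163.9, 694.6 and 1081 CPM in high clams (log2 fold change -4.81 with SE 0.514, edgeR adjusted p = 1.52e-07). CBPQ, a carboxypeptidase, fell by 2.04 on the log2 scale (SE 0.222, edgeR adjusted p = 1.8e-07). The chymotrypsin-like ctrl.L, in turn, ran over 35.0, 321.5 and 577.0 CPM in low clams, against 2.69, 8.92 and 352.1 CPM in high clams (log2 fold change 4.05 with SE 0.941, edgeR adjusted p = 0.00136). The high clams that overlapped were WWTP individual 37 at 352.1 CPM, WWTP individual 47 at 128.0 CPM and reference individual 31 at 127.8 CPM. TRYM, named for a tryptase, ran over 2.13, 79.1 and 286.4 CPM in low clams, against 1.59, 1.92 and 85.9 CPM in high clams (log2 fold change 4.56 with SE 1.07, edgeR adjusted p = 0.00144). Low clams varied among themselves here. Reference individuals 30 and 21, at 2.13 and 7.92 CPM, were near the high clams in TRYM, and of the high clams only WWTP individual 47 and reference individual 31 exceeded 3 CPM. Contigs named for plasminogen, a circulating protease of vertebrates, were higher as well, as in PLMN.3.3 (log2 fold change 1.32 with SE 0.31, edgeR adjusted p = 0.00128). Of 28 proprotein convertases, which cut precursors of secreted proteins, 10 were higher, 7 lower and 11 not called. With library totals 12 were higher and 5 lower, and at the reference site alone 2 were higher and 5 lower. Over all clams, 4 of the 28 had every low clam above every high clam and 2 had every low clam below. The log2 fold changes of the list ran from -5.09 to 2.04. PCSK4.8.15 fell by 5.09 on the log2 scale (SE 0.607, edgeR adjusted p = 5.73e-07).

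Proteins that bind microbial sugars or other foreign surfaces were split too. Of 93 immune recognition contigs, among them lectins, ficolins, complement-type and scavenger receptor names, 43 were higher, 26 lower and 24 not called. With library totals 52 were higher and 24 lower. With fewer clams the balance changed: 12 were higher and 24 lower in lane 3 alone, and 35 and 26 in lane 4 alone. At the reference site alone 21 were higher and 24 lower, and at the urban runoff site alone 22 and 29. Over all 24 clams, 22 of the 93 contigs had every low clam below every high clam and 3 had every low clam above. FCN2.2.4, a ficolin, which binds acetylated sugars on microbes in mammals, ran over 23.9, 43.3 and 70.8 CPM in low clams, against 1.58, 3.78 and 14.9 CPM in high clams (log2 fold change 2.82 with SE 0.451, edgeR adjusted p = 2.69e-05). Its fold was alike at the sites, with log2 values of 2.87 at the urban runoff site, 2.86 at the WWTP site and 2.75 at the reference site. DMBT1.2.2, a scavenger receptor of mucosal surfaces in mammals, ran over 1.15, 1.94 and 22.4 CPM in low clams, against 45.7, 204.5 and 308.4 CPM in high clams (log2 fold change -5.13 with SE 0.647, edgeR adjusted p = 1.12e-06). The lectins CLEC17A.1.3 and CLC10.4.4 each fell by 5.08 on the log2 scale (SE 0.53 and 0.556, edgeR adjusted p = 1.32e-07 and 2.26e-07). Of 50 contigs with interferon-type names, 13 were higher, 21 lower and 16 not called, a median of -0.07; with library totals 17 were higher and 16 lower. IFI44 fell by 3.83 on the log2 scale (SE 0.382, edgeR adjusted p = 7.98e-08) and GBP2.2.4, a guanylate-binding protein, was higher (2.46, SE 0.401, edgeR adjusted p = 3.35e-05). Of 32 inhibitors of apoptosis, 7 were higher, 9 lower and 16 not called. With library totals 12 were higher and 4 lower, so the balance of this list rests on the scaling. The count of 7 fell to 3 without WWTP individual 41 and to 4 without urban runoff individual 53 or reference individual 20, 21 or 25. XIAP.4.5 was higher with no overlap, at 3.64, 4.24 and 5.10 CPM in low clams and 0.586, 1.28 and 2.73 CPM in high clams (log2 fold change 1.61 with SE 0.225, edgeR adjusted p = 4.06e-06). BIRC7.1.9, birc7.2.2 and BIRC7.9.9 were lower, with overlap (log2 fold changes -3.28, -2.10 and -1.86, edgeR adjusted p = 2.74e-07, 2.32e-05 and 1.24e-05).

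**Figure D3:**
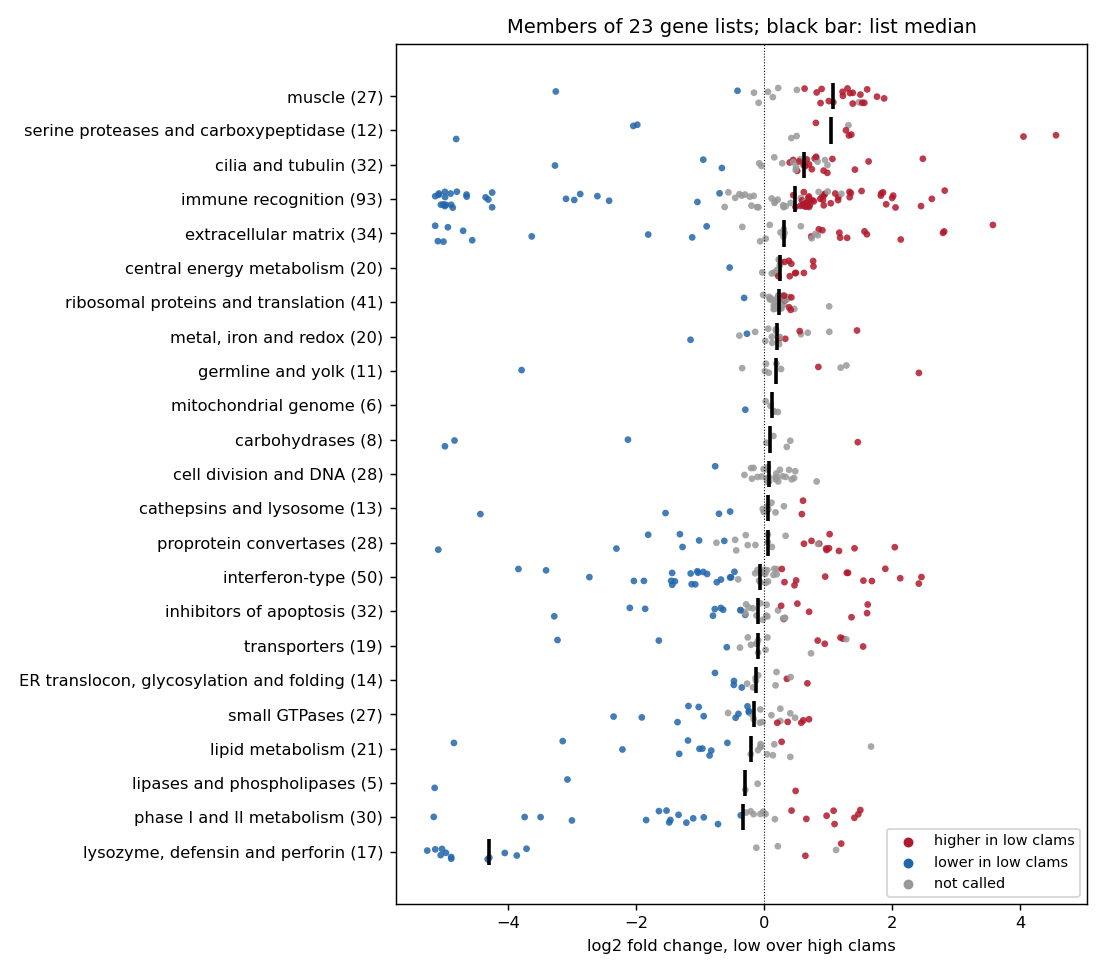
Log2 fold change, low over high clams, of each tested contig of 23 gene lists, with the number tested in brackets, sorted by list median (black bar). Lysozymes, defensins and perforins lie between -5.26 and -3.71 except for 5 contigs, while most muscle and tubulin contigs lie above 0 and several lists hold contigs at both ends.

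Enzymes that handle foreign compounds and fats differed in both directions. Of 30 phase I and II metabolism contigs, 15 were lower, 8 higher and 7 not called, with a median log2 fold change of -0.32. GstS1, a glutathione transferase, ran over 8.72, 14.7 and 64.0 CPM in low clams, against 78.0, 227.6 and 333.2 CPM in high clams (log2 fold change -3.49 with SE 0.367, edgeR adjusted p = 1.26e-07). The microsomal transferase mgst1.2.2 fell by 3.0 on the log2 scale (SE 0.272, edgeR adjusted p = 3.56e-08). Its companion mgst1.1.2 stood at medians of 18.3 CPM in low and 23.9 CPM in high clams and was not called. CP3AO and CP3A2, cytochrome P450 names, fell by 1.46 and 1.21 on the log2 scale (edgeR adjusted p = 2.1e-06 and 5.9e-06). The alcohol dehydrogenases ADHX.1.2 and ADHX.2.2 were higher, by 1.5 and 1.41 on the log2 scale (edgeR adjusted p = 0.00438 and 0.00946). Of 21 lipid metabolism contigs, 10 were lower, 1 higher and 10 not called, and with library totals 9 were lower and 6 higher. PAHX, a peroxisomal enzyme for branched fatty acids, ran over 28.6, 33.2 and 44.8 CPM in low clams, against 57.3, 161.1 and 230.1 CPM in high clams (log2 fold change -2.21 with SE 0.214, edgeR adjusted p = 5.75e-08). BCO2.1.2, which cleaves carotenoids, and ACADM, which oxidises medium-chain fatty acids, were lower with no overlap between the sets. Enzymes of the mevalonate route to sterols, idi1 and mvk, were not called.

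Ferritin was lower too. FRIS, a ferritin named from snails that holds iron within cells, ran over 2712, 2876 and 3056 CPM in low clams, against 3583, 6656 and 8988 CPM in high clams (log2 fold change -1.15 with SE 0.174, edgeR adjusted p = 1.23e-05). The low clams lay within a narrow range and did not overlap with the high ones. Of 20 contigs for metals, iron and redox, FRIS was 1 of 2 that were lower, 4 were higher and 14 were not called. With library totals 13 were higher and 1 lower, and with upper-quartile scaling 10 were higher and 1 lower. Without WWTP individual 46, WWTP individual 48 or reference individual 31 the number higher was 7, 8 and 7. The largest fold of this list was a gain, in THIO.2.2 (log2 fold change 1.45 with SE 0.191, edgeR adjusted p = 1.84e-06). In THIO.2.2, 6 of 7 low clams exceeded every high clam. SELW.2.5 and SEPW1 were higher, with overlap (log2 fold changes 0.56 and 0.33, edgeR adjusted p = 1.75e-05 and 0.00174). The metallothionein MT, which binds copper, zinc and cadmium, stood at 304.4, 364.8 and 492.5 CPM in low clams and 209.5, 297.0 and 486.2 CPM in high clams and was not called.

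Structural proteins rose and fell by contig. TUBB4A, a beta-tubulin, ran over 24.3, 98.1 and 142.5 CPM in low clams, against 6.78, 12.9 and 49.1 CPM in high clams (log2 fold change 2.48 with SE 0.39, edgeR adjusted p = 2.14e-05), and 6 of 7 low clams exceeded every high clam. Of 32 cilia and tubulin contigs, 17 were higher, 3 lower and 12 not called, with a median of 0.63. The number higher ran from 12 to 22 with 1 library left out. It was 23 with library totals, 5 in lane 3 alone, 11 in lane 4 alone and 7 at the reference site alone. DNAL1, a light chain of the dynein that moves cilia, was higher with no overlap (log2 fold change 1.63 with SE 0.229, edgeR adjusted p = 4.34e-06). Against these, the alpha-tubulin TBA1.6.7 ran over 48.8, 70.5 and 110.7 CPM in low clams and 257.8, 725.6 and 937.2 CPM in high clams (log2 fold change -3.26 with SE 0.26, edgeR adjusted p = 2.28e-08). Of 34 extracellular matrix contigs tested (of 35), 12 were higher, 10 lower and 12 not called. With library totals 17 were higher and 9 lower. In lane 3 alone 4 were higher and 8 lower, and at the reference site alone 2 were higher and 9 lower. TENX.2.2, a tenascin, was higher at 3.75, 18.7 and 30.4 CPM in low clams, against 0, 0.430 and 14.03 CPM in high clams (log2 fold change 3.57 with SE 1.03, edgeR adjusted p = 0.00756). CO8A1, a collagen, and HMCN1.2.7, a hemicentin of basement membranes, fell by 5.13 and 5.09 on the log2 scale (edgeR adjusted p = 1.37e-07 and 1.9e-06).

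Transcripts of muscle were mostly higher, with much spread, and the largest difference was a loss. Of 27 muscle contigs 18 were higher, 2 lower and 7 not called, with a median log2 fold change of 1.08. The count of 18 was 6 without urban runoff individual 53, 9 without reference individual 21 and 11 without reference individual 20, all low clams. It was also 6 without the site term, 1 in lane 3 alone and 16 in lane 4 alone. Projectin, a giant protein of insect muscle filaments, ran over 0.925, 1.22 and 2.32 CPM in low clams, against 3.96, 12.4 and 18.9 CPM in high clams (log2 fold change -3.25 with SE 0.277, edgeR adjusted p = 2.57e-08), and every low clam lay below every high clam. The actin ACTM was lower as well, with overlap, at 150.0, 228.3 and 282.9 CPM in low clams and 226.4, 296.5 and 535.3 CPM in high clams (log2 fold change -0.41 with SE 0.152, edgeR adjusted p = 0.0311). MYS.1.2, a myosin, ran over 303.9, 1307 and 2096 CPM in low clams, against 40.4, 167.2 and 4700.1 CPM in high clams (log2 fold change 1.87 with SE 0.726, edgeR adjusted p = 0.0409). The value of 4700.1 CPM belonged to WWTP individual 33, the high clam nearest the threshold. SCP.5.7, a calcium-binding protein of muscle, was higher with less spread (log2 fold change 1.61 with SE 0.347, edgeR adjusted p = 0.000675). Summed over the list, muscle contigs ran over 1950, 4559 and 6134 CPM in low clams and 925.9, 1509.6 and 15429 CPM in high clams. The yolk contigs were not called. Vg.2.2, a vitellogenin, the egg yolk precursor, ran over 2855, 4138 and 5294 CPM in low clams and 87.7, 1803 and 9456 CPM in high clams, and was not called (log2 fold change 1.2 with SE 0.51, edgeR adjusted p = 0.0602). The 11 germline and yolk contigs summed to 4766, 7079 and 9158 CPM in low clams and 175.8, 2969 and 15858 CPM in high clams. Among these 11 contigs, 2 were higher, namely ZAR1 and MEIG1, VMO1 was lower and 8 were not called. The number higher was 4 without WWTP individual 33, WWTP individual 48 or reference individual 29, by DESeq2 and by limma-voom, and 5 with library totals or upper-quartile scaling. The part of muscle, germline and ciliated cells in the differences above was not tested.

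**Figure D4:**
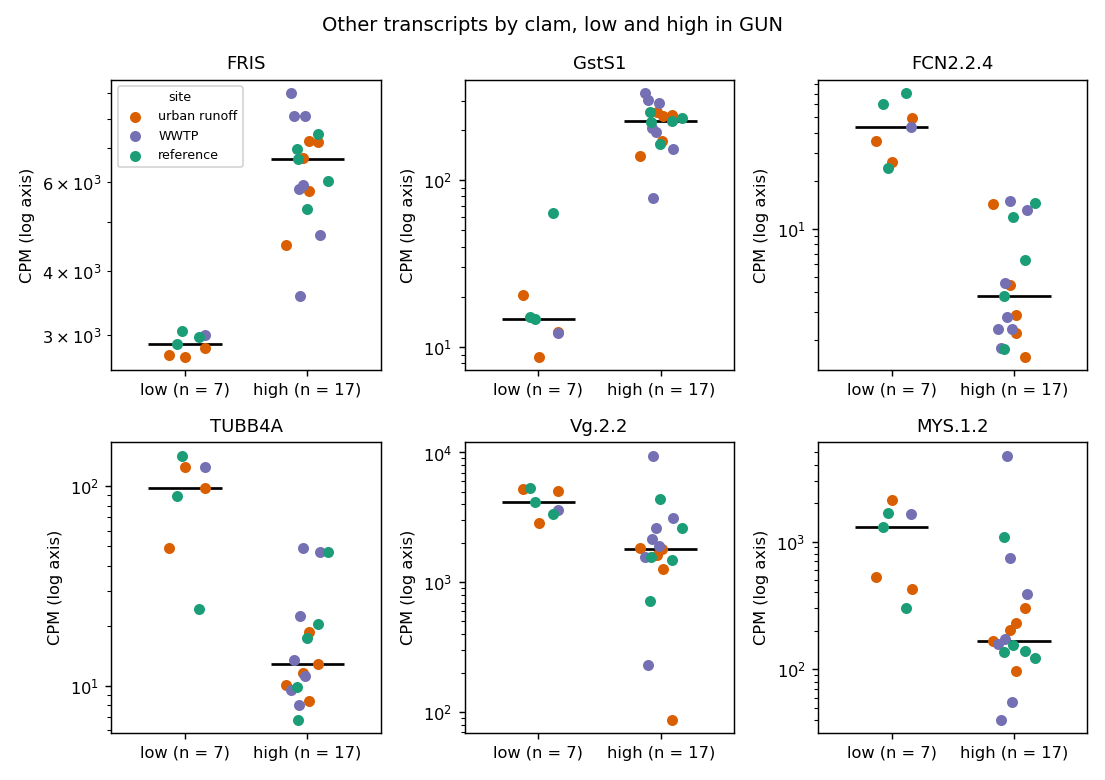
Level of 6 further transcripts in each clam, as CPM of the TMM-scaled library size on a log axis, with low clams (n = 7) left of high clams (n = 17); colours are sites and black bars are medians. FRIS, GstS1 and FCN2.2.4 show no overlap, TUBB4A overlaps in 1 low clam, and Vg.2.2 and MYS.1.2 overlap widely, with WWTP individual 33 highest in both.

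Contigs for translation and energy metabolism had small log2 fold changes. Of 41 ribosomal protein and translation contigs, 5 were higher, 1 lower and 35 not called, with a median log2 fold change of 0.24 and the highest at 1.02. With library totals 39 were higher, with upper-quartile scaling 32, and without the site term 1, so the count rests on these choices; without 1 library the count ran from 1 (reference individual 20 or 21) to 11 (WWTP individual 33). Of 20 central energy metabolism contigs, 11 were higher, 1 lower and 8 not called, and 6 were higher without reference individual 21, 5 without the site term and 19 with library totals. Pepck, the entry enzyme of gluconeogenesis, stood at 643.5, 834.1 and 974.0 CPM in low clams and 366.6, 451.6 and 1135 CPM in high clams (log2 fold change 0.77 with SE 0.159, edgeR adjusted p = 0.000434). G3P, a glycolytic dehydrogenase, had the same log2 fold change of 0.77 (SE 0.157, edgeR adjusted p = 0.0004). Of 6 contigs of the mitochondrial genome, 1 was lower and 5 were not called, while with library totals 5 were higher and 0 lower, and with upper-quartile scaling 0 were called. Of 28 cell division and DNA contigs, UNG, which removes uracil from DNA, was lower and 27 were not called, while with library totals 8 were higher and 0 lower. Of 14 contigs for the ER translocon, glycosylation and folding, 4 were lower, 2 higher and 8 not called, and with library totals 6 were higher and 0 lower. Of 19 transporters 5 were higher, 3 lower and 11 not called, and 6 were lower without reference individual 30; with library totals 8 were higher and 2 lower. MOT10, a transporter of the monocarboxylate family, fell by 3.22 on the log2 scale (SE 0.395, edgeR adjusted p = 7.79e-07), with every low clam below every high clam, and G6PT3 fell by 1.64 (SE 0.199, edgeR adjusted p = 6.14e-07). The transporters SC6A8 and CUBN.1.2 were higher, with overlap (log2 fold changes 1.23 and 0.95, edgeR adjusted p = 0.000434 and 0.00114). Of 27 small GTPases 11 were lower, 5 higher and 11 not called; 6 were lower without WWTP individual 42, 46 or 48 or reference individual 31, and 3 higher without urban runoff individual 53; with library totals 5 were lower and 9 higher. RHOG.3.4 and rac3, which act on the actin skeleton, fell by 2.35 and 1.91 on the log2 scale (SE 0.372 and 0.228, edgeR adjusted p = 2.37e-05 and 4.93e-07). RAB1A, which directs vesicles from the ER to the Golgi, fell by 1.02 on the log2 scale (SE 0.142, edgeR adjusted p = 3.71e-06).

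Contigs without a gene symbol differed as well. Of 1581 tested contigs with a symbol, 414 (26.2%) were higher and 348 (22.0%) lower. Of contigs with a locus number or tag, 4544 (23.6%) were higher and 4972 (25.8%) lower. Contigs with a number only were higher in 6121 cases (16.6%) and lower in 8541 (23.2%). The contig contig_01322, which carries no gene name, ran over 86.7, 190.1 and 216.9 CPM in low clams, against 0.283, 1.29 and 42.2 CPM in high clams (log2 fold change 5.82 with SE 0.75, edgeR adjusted p = 1.53e-06). It separated the sets completely, with reference individual 29 the highest of the high clams. LOC105335342.10.11 was also higher without overlap (log2 fold change 4.29 with SE 0.758, edgeR adjusted p = 8.79e-05). In the other direction contig_16835 ran over 0, 0.0419 and 0.797 CPM in low clams and 2.28, 6.47 and 18.8 CPM in high clams (log2 fold change -5.59 with SE 0.667, edgeR adjusted p = 5.73e-07).

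Low and high were not 2 separate states in every clam. For each clam its position between the medians of the sets was taken over the 4859 lower and 2434 higher contigs with over a 2-fold difference and a mean of at least 1 CPM, where 0 is the high median and 1 the low median. As the same clams set the medians, this is a description. Over the lower contigs, the 6 low clams other than reference individual 30 had positions of 0.863 to 1.06, and reference individual 30 stood at 0.704. WWTP individual 33, a high clam by the threshold, stood at 0.58, and the other 16 high clams lay between -0.179 and 0.177. The higher contigs gave another order. Reference individual 30 stood at 0.574 there. WWTP individuals 37 and 47, at 0.459 and 0.426, stood above WWTP individual 33, at 0.282, although their GUN levels were 355.9 and 533.6 CPM, against 135.7 CPM in WWTP individual 33. Both were among the 3 high clams that overlapped with low ones in ctrl.L. Over the higher contigs, reference individuals 29 and 31 stood at 0.236 and 0.205, and the rest of the high clams at 0.0941 or lower. Without the 2 clams nearest the threshold, reference individual 30 and WWTP individual 33, a choice made after seeing the data, 27424 contigs were called.

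**Figure D5:**
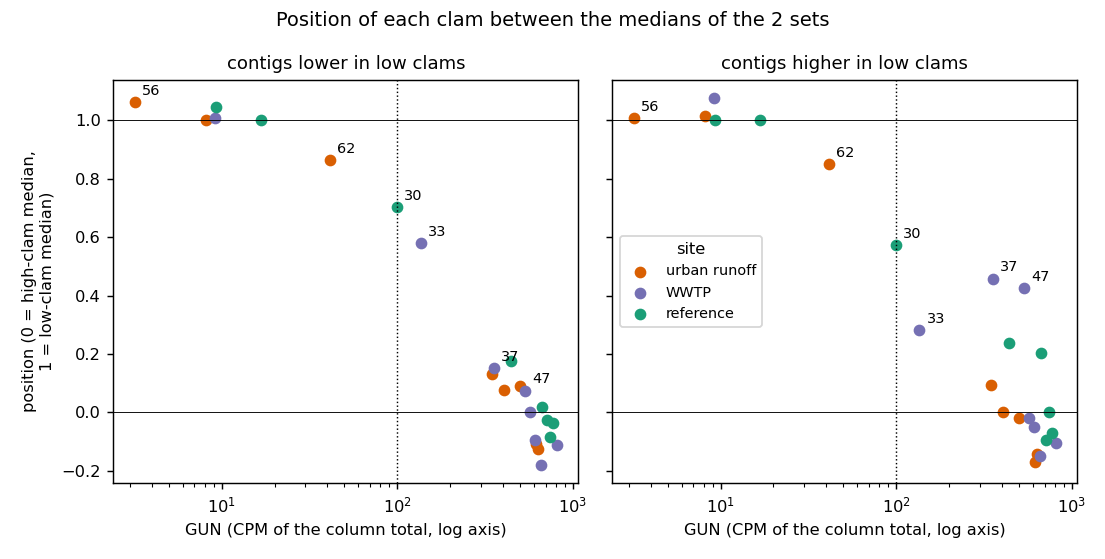
Position of each clam between the median of the high clams (0) and that of the low clams (1), over contigs lower (left) and higher (right) in low clams, against GUN (CPM of the column total, log axis; dotted line, the threshold of 100 CPM). Colours are sites and numbers are individuals. Individuals 30 and 33 lie between the sets on the left. Individuals 30, 33, 37 and 47 do so on the right, at 0.574, 0.282, 0.459 and 0.426. Reference individuals 29 and 31, drawn without a number, lie near individual 33 on the right, at 0.236 and 0.205.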

How the data were processed

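Digestive gland RNA of 24 clams was sequenced, 1 library per clam. Per the labels' protocols, the library kit was TruSeq RNA v2. The deposited values are raw read counts per assembled contig, and the submitters' processing notes name BWA 0.7.12 and SAMtools 1.1. The sources used here do not state how contigs were assembled, named and counted, or whether counting used strand.

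Clams were classed by GUN in CPM of the column total (threshold 100). Contigs were filtered with filterByExpr by class (minimum count 10), which left 57725 of 58291; the 566 removed held 0.00525% of counts. edgeR 4.0.16 (R 4.3.3; robust quasi-likelihood, TMM) was fitted to all 24 libraries with site and class as terms, with Benjamini-Hochberg adjustment over all contigs and a threshold of 0.05. Fold changes are low over high clams. The biological coefficient of variation was 34.1%. A count of 0 allows up to 3 counts at 95% confidence, or 0.0323 to 0.0792 CPM, which covers counting error only. The script was tested on simulated counts.

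The 23 gene lists were drawn up from contig names, and the members and lists were chosen with earlier results of these data known. Genes named by rule are the 3 markers and the 12 symbols with the largest log2 fold changes in each direction past the threshold (mean 5 CPM or more). They also include up to 4 per list (mean 2 CPM or more) and 2 contigs without a symbol in each direction. The text gives only some of the genes named by rule. Among those left out are DOPR4, NID2 and ILEU, which were higher, and SSPO.3.4 and SPI2.4.14, which were lower. Genes outside the rule, such as Amy.2.2, LYS1, LYS.1.5, CHIA, CEL, CATL, MT, Vg.2.2, daglb, PLMN.3.3, ZAR1, ACADM, idi1 and the P450 and ADHX contigs, were added after their values were seen. Alternatives tried were other scalings, no filter, no site term, lane as a term, single lanes and sites, a threshold of 0.01, a test against 2-fold (glmTreat), DESeq2 1.42.0, limma-voom (limma 3.58.1) and each library left out in turn. No library was a copy of another (highest correlation 0.986). Figures were drawn with matplotlib 3.10.9.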

Additional observations from a re-analysis of the deposited data

Results flagged for a closer look

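Among the 7 low clams, 1 clam stood far from the others in 25 of the 101 genes named by rule. A gene is given here where the gap between the outermost clam and its nearest neighbour exceeded Dixon's 95% critical share of the range over the 7, which chance alone gives in about 1 in 20 genes. In every such gene the clam was reference individual 30, whose GUN level was also the one nearest the threshold. It was the highest low clam in 24 genes. For enzymes and transport these were Amy.1.2 at 70.7 CPM, MANA at 21.7 CPM, RDH7.2.2 at 6.42 CPM, NEC2 at 6.92 CPM, cln6 at 3.95 CPM, DCXR.2.2 at 11.3 CPM, GstS1 at 64 CPM, APOD at 1.81 CPM and RAB1A at 98.1 CPM. For defence and recognition they were MPEG1.4.4 at 2.33 CPM, LYS.2.5 at 4.67 CPM, CLEC17A.1.3 at 3.35 CPM, CLC10.4.4 at 1.03 CPM and IFI44 at 2.24 CPM. For matrix, cell surface and other roles they were Mdga1 at 0.861 CPM, pxdn at 1.96 CPM, CO8A1 at 0.818 CPM, HMCN1.2.7 at 6.77 CPM, HMCN1.5.7 at 8.16 CPM, COCA1 at 6.63 CPM, VMO1 at 1.12 CPM and contig_16835 at 0.797 CPM. For the cilia list they were DNAL1 at 15.9 CPM and TBB.5.11 at 62.2 CPM, which were higher in low than in high clams, so that reference individual 30 lay farther from the high clams there. In eef1b2, at 36.6 CPM, it was the lowest. Most of these genes were picked for differing between sets made by GUN, in which this clam lay nearest the threshold. The rate of 1 in 20 is therefore no yardstick for them. Genes that vary together are also not independent, so the count of 25 is no measure of evidence. The values of the markers Amy.1.2 and MANA describe the spread within the low clams only.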

How the results depend on the processing

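The number of calls, 24940 (44.4% of them higher), stayed within 1.5 times under scaling by DESeq2 size factors, upper quartile or library totals. It did so too without filter or site term, with lane as a term and in lane 4 alone. The same held by DESeq2 or limma-voom, and at an adjusted p of 0.01. The contigs called were not all the same. Of the 24940, 18506 were among the 35764 called with library totals, and 21078 among the 29161 called with upper-quartile scaling. Counts within single lists moved more: of 27 muscle contigs 18 were higher, against 6 without the site term, and of 41 ribosomal and translation contigs 5, against 39 with library totals. Single libraries left out gave 22548 (without WWTP individual 41) to 27303 (without WWTP individual 33). With fewer clams the count was 8976 in lane 3 alone, 12086 at the reference site alone and 13666 at the urban runoff site alone; the WWTP site, with 1 low clam, was not fitted alone. Tested against a 2-fold change (glmTreat) it was 4367, of which 863 were higher. The share higher was 79.3% with library totals and 65.7% with upper-quartile scaling, where the median log2 fold change over all contigs was 0.35 and 0.18; the cause was not tested. Of the 101 genes named by rule, CYTB.2.2 alone changed direction, to a log2 fold change of 0.0409 with library totals. Below the threshold fell 25 in lane 3 alone, 19 in lane 4 alone, 27 at the reference site alone and 17 at the urban runoff site alone. The library totals differed by -6.40 M in lane 3 (exact permutation p = 0.582) and -10.9 M in lane 4 (exact permutation p = 0.154). No paired analysis was possible because the replicate numbers only name samples, and each clam gave 1 library. Each site had 1 caging, and contigs that share a name may share reads.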
